A study of Mus musculus with 8 samples.

Results

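*Trp53*, which encodes p53, and 9 of its direct target genes (*Cdkn1a*, *Mdm2*, *Bax*, *Bbc3*, *Sesn1*, *Sesn2*, *Ccng1*, *Zmat3*, and *Sco2*) were followed in mice with and without TIGAR, a further p53 target. The samples were left ventricle of unstated surgery and the zones of infarcted hearts. The members were taken by name and make up 10 of the 16994 genes in the table. The 8 libraries came from WT and TIGAR-knockout (TKO) mice, with 1 for each genotype in the left ventricle (LV), the infarct zone, the border zone, and the remote zone. Myocardial infarction (MI) was induced in male mice by permanent ligation of the left anterior descending coronary artery at 16 weeks of age, and heart function was followed to 4 weeks. The time at which zone tissue was taken for RNA is not given in the sources used here, nor are the surgery, sex, and age behind the LV libraries, which the labels call left ventricle with no zone. The TKO mice lack TIGAR in the whole body, so the loss is not limited to the heart. For the infarct zone, RNA of 3 mice per genotype was pooled into 1 library, and the number behind the other libraries is not given in the sources used here.

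p53 is a transcription factor that responds to DNA damage, oxidative stress, and oncogene signals, and its activity is set mainly by the stability and modification of the protein, which transcript levels do not measure. MDM2, the product of one of its own targets, is the ubiquitin ligase that marks p53 for degradation and so closes a feedback loop. The other targets arrest the cell cycle (*Cdkn1a*), release apoptosis (*Bax* and *Bbc3*), restrain mTORC1 and limit oxidants (*Sesn1* and *Sesn2*), or serve respiration (*Sco2*). TIGAR dephosphorylates fructose 2,6-bisphosphate, which lowers glycolytic flux and favors the pentose phosphate pathway.

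The promoter windows show which members carry a sequence of the kind p53 binds close to a start site. RefSeq windows on GRCm38.p6, each 300 bases long (250 before and 50 after a start), were found for 9 of the 10 genes, 13 windows in all, and none was matched for *Zmat3*. The windows were searched for a p53 response element, taken as 2 adjacent copies of the 10-base p53 half-site consensus with the central C and G of each copy intact and at most 3 other mismatches. The consensus equals its own reverse complement, so the search covers both strands. Such an element stood in 5 of the 13 windows, against 1.38% of all 32851 windows. The limit of 3 was chosen after a search with at most 2 had been seen. That search gave 2 member windows, against 0.326% of all windows. The members were listed as direct p53 targets, so these shares describe the list and are no independent support. With at most 1 mismatch an element stood in 2 member windows, those of *Cdkn1a* and *Ccng1*, against 0.067% of all windows. These are shown first because the 2 genes moved in opposite directions in the infarct zone, followed by the elements of *Bbc3*, *Sesn1*, and *Trp53* itself, each with 3 mismatches. Distances run from the first base of the element to the start site in the window that holds it, and coordinates are those of the whole printed sequence. The windows at other starts of *Cdkn1a*, *Bbc3*, and *Sesn1* held no such element. Capitals mark the 20 bases of the element, and each sequence is written along the strand of its gene.
*Cdkn1a*, chr17:29090908-29090967, plus strand, 51 bases before the start: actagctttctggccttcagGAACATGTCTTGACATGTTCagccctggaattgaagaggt
*Ccng1*, chr11:40755442-40755501, minus strand, 195 bases before the start: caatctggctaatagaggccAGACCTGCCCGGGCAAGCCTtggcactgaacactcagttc
*Bbc3*, chr7:16309466-16309525, plus strand, 97 bases before the start: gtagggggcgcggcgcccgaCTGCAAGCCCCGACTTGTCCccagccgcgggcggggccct
*Sesn1*, chr10:41887246-41887305, plus strand, 173 bases before the start: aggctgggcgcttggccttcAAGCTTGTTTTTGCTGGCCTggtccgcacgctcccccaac
*Trp53*, chr11:69580264-69580323, plus strand, 75 bases before the start: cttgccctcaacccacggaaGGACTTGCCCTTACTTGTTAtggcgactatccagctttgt
A match is a description of these letters and not a measured binding site, and a window without one says nothing of elements elsewhere in the gene.

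Total counts lay between 27429240 and 33799249 per library. *Tigar* had 1066 to 2215 counts in the 4 WT libraries and 51 to 87 in the 4 TKO libraries, so each library carried the level its label gives. Levels are given as CPM, each count scaled to a common library total after adjustment by TMM factors from edgeR. These factors were 1.54 and 1.26 in the WT and TKO infarct libraries and 0.866 to 0.956 in the other 6. The summed level of 8 cardiomyocyte markers fell to 9644 CPM in the WT and 20670 CPM in the TKO infarct zone, against 31650 to 44180 CPM in the other 6 libraries. The summed level of 7 fibroblast markers was 8235 and 6830 CPM in the 2 infarct libraries and 866.4 to 2981 CPM elsewhere, and 7 macrophage markers summed to 1437 and 1097 CPM against 284 to 540.5 CPM. In bulk tissue, fewer cells of a type and less RNA per cell cannot be told apart.

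The 10 genes spanned a wide range of abundance. As CPM per kilobase of the longest coding transcript, averaged over the 8 libraries, the level of *Ccng1* was highest at 191, followed by *Sesn1* at 35.8, *Mdm2* at 17.1, *Bax* at 15.7, *Cdkn1a* at 13.8, and *Trp53* at 9.74. *Sco2* (4.48), *Bbc3* (2.42), *Sesn2* (1.46), and *Zmat3* (1.10) were the lowest. All 10 passed the filter of a mean CPM of at least 1, which 12999 genes passed. *Ccng1*, cyclin G1, which binds a phosphatase that acts on MDM2, had the highest level of the set by this measure. With the median transcript length in place of the longest, *Bax* (21.6) and *Cdkn1a* (18.6) would stand above *Mdm2* (17.2), and *Bbc3* (9.06) above *Sco2* (4.67).

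**Figure D1:**
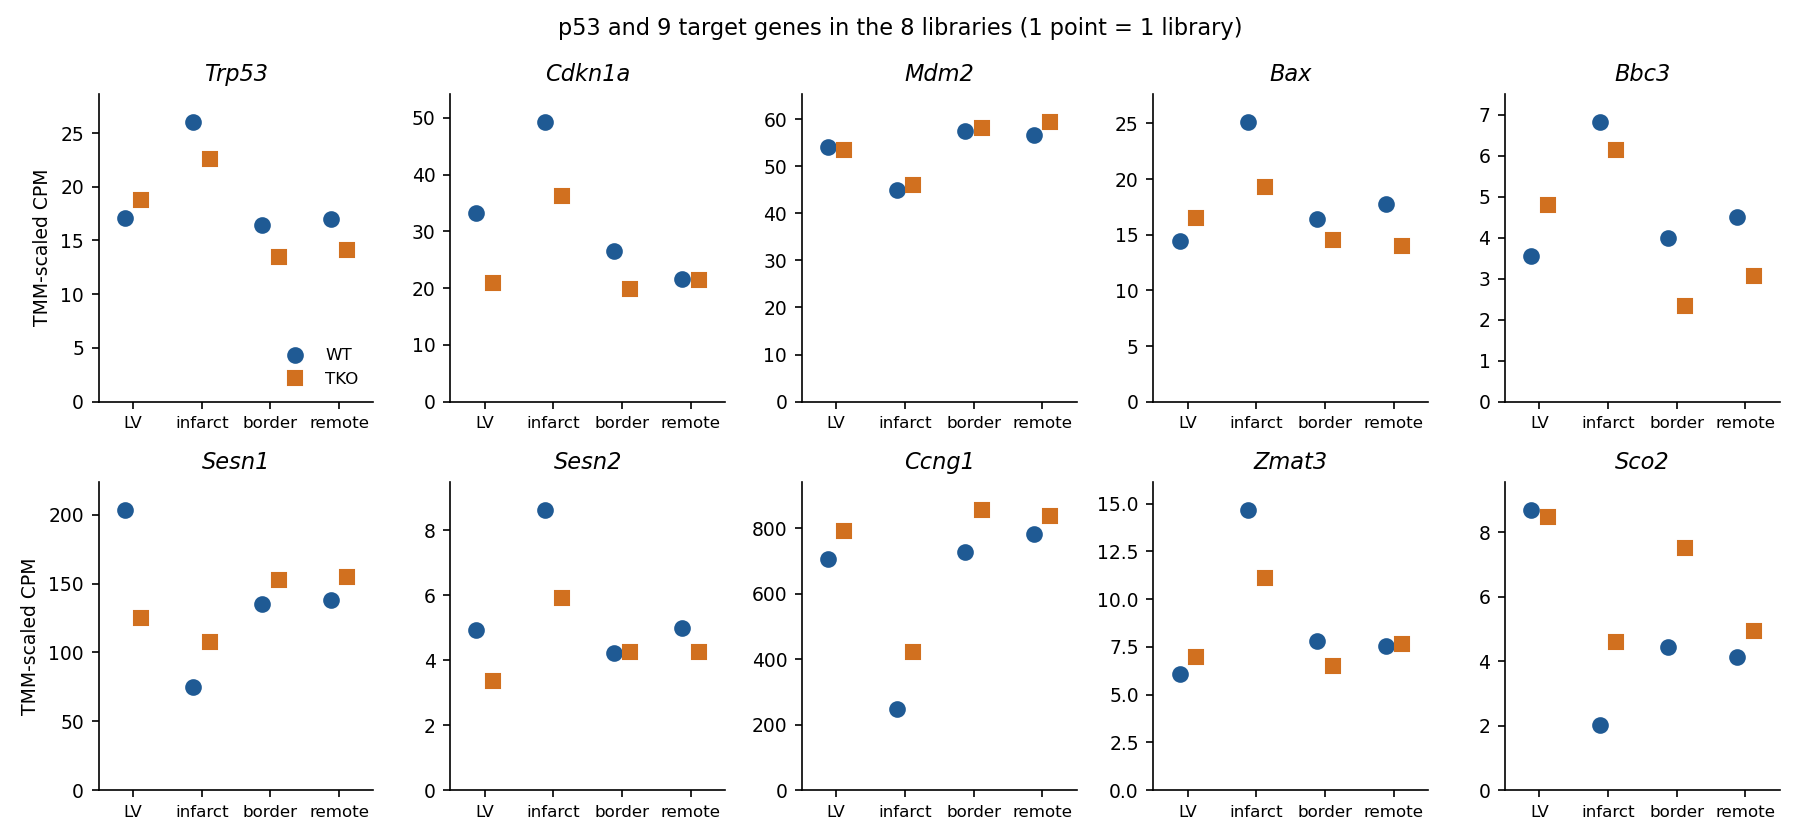
TMM-scaled CPM of each member (y axis, from 0) in the LV and the infarct, border, and remote zones (x axis), with WT as circles and TKO as squares; each point is 1 library. *Trp53*, *Cdkn1a*, *Bax*, *Bbc3*, *Sesn2*, and *Zmat3* have their highest point in the WT infarct zone. *Mdm2*, *Sesn1*, *Ccng1*, and *Sco2* have their lowest there. The share of all genes with such an extreme is not given. Of all genes tested, 28.5% were at least 1.5-fold higher in the WT infarct zone than in the WT LV. A further 25.8% were at least 1.5-fold lower.

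The first question was how these genes differ between the infarct zone and the LV. Across both genotypes 5 members rose (*Zmat3*, *Sesn2*, *Cdkn1a*, *Bax*, and *Trp53*), 3 fell (*Sco2*, *Ccng1*, and *Sesn1*), and *Bbc3* and *Mdm2* did not pass the test (edgeR quasi-likelihood test over 8 libraries, Benjamini-Hochberg adjusted p under 0.05). Of all genes tested, 28.2% were called higher and 28.6% lower in this comparison, so most genes moved and the members' count is to be read against that. Their median log2 difference was 0.47, against 0.02 for all genes. The test uses the 2 genotypes as its only repeats of a region, so it bears on these libraries and not on mice. Scaling by total counts alone moves the median of all genes to 0.71 on the log2 scale. In that case 7 members are called higher and 2 lower, with 60.5% of all genes higher and 8.34% lower. When the infarct zone was instead set against the remote zone in a fit without the LV libraries, an alternative chosen after the data were seen, 9 members were called, 6 higher and 3 lower (28.8% and 28.7% of all genes).

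*Trp53* (chromosome 11, 69580359 to 69591873) had 17.1, 26.1, 16.5, and 17.0 CPM in the WT LV, infarct, border, and remote libraries. In TKO the levels were 18.8, 22.6, 13.5, and 14.1 CPM in the same order. The 2 infarct libraries were the highest of the 8, above both LV libraries. The infarct zone was 1.35-fold higher than the LV (log2 0.43 ± 0.13 SE, adjusted p = 0.0288). The call is lost with only the 4 infarct and LV libraries (adjusted p = 0.0891) or with no filter on low counts (0.0588). Over 8 alternatives the range was 0.00075 to 0.0891. In WT hearts the border and remote levels could not be told from the LV by counting error, with ratios of 0.964 (95% interval, 0.848 to 1.10) and 0.993 (0.875 to 1.13). In TKO hearts both lay under the LV, at ratios of 0.715 (0.625 to 0.818) and 0.751 (0.658 to 0.857).

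*Mdm2* (chromosome 10, 117688875 to 117710758) had its lowest levels where *Trp53* had its highest. It had 54.1, 44.9, 57.4, and 56.6 CPM in the WT LV, infarct, border, and remote libraries, and 53.5, 46.0, 58.2, and 59.5 CPM in TKO. The 2 infarct libraries were the lowest of the 8, and the whole spread from lowest to highest was 1.32-fold, the narrowest of the 10 genes. Infarct over LV was 0.845-fold (log2 -0.24 ± 0.09 SE), which missed the threshold at an adjusted p of 0.0555, and total counts alone turned its direction to 0.44 (adjusted p = 0.0131; range over 8 alternatives, 0.0106 to 0.225). Against the remote zone it fell, at 0.779-fold (adjusted p = 0.0106). Over the 8 libraries the log2 levels of *Trp53* and *Mdm2* had a Pearson correlation of -0.957, given as a description, since these points share their libraries and are set apart by the infarct zone.

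*Cdkn1a* (chromosome 17, 29090976 to 29100727) encodes p21, the inhibitor of cyclin-dependent kinases through which p53 halts the cell cycle. Its WT levels were 33.2, 49.4, 26.6, and 21.6 CPM in the LV, infarct, border, and remote libraries. Those in TKO were 20.97, 36.3, 19.8, and 21.5 CPM. The 2 infarct libraries stood above the rest, with the WT LV next. *Cdkn1a* rose 1.60-fold in the infarct zone (log2 0.67 ± 0.16 SE, adjusted p = 0.0113). Taken within a genotype, the infarct over LV ratio of WT was 1.49 (1.38 to 1.61) and that of TKO 1.73 (1.57 to 1.92).

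*Bax* and *Bbc3* are the apoptotic arm: BAX permeabilizes the outer mitochondrial membrane, and PUMA, the product of *Bbc3*, binds and neutralizes the antiapoptotic BCL2 proteins. *Bax* (chromosome 7, 45461697 to 45466898) had 14.4, 25.2, 16.4, and 17.8 CPM in the WT LV, infarct, border, and remote libraries and 16.5, 19.3, 14.6, and 14.0 CPM in TKO. It rose 1.42-fold in the infarct zone (log2 0.51 ± 0.16 SE, adjusted p = 0.0309). The WT ratio was 1.75 (1.56 to 1.97) and the TKO ratio 1.17 (1.03 to 1.32). The call is lost with only the 4 libraries compared (adjusted p = 0.0889) and with no filter on low counts (0.0532), and the range over 8 alternatives was 0.00114 to 0.0889. *Bbc3* (chromosome 7, 16308393 to 16318205) was scarce, with 69 to 289 counts per library. Its levels were 3.54, 6.83, 3.99, and 4.50 CPM in WT and 4.79, 6.13, 2.33, and 3.06 CPM in TKO, so that the 2 infarct libraries were again the highest. The difference of 1.53-fold (log2 0.62 ± 0.31 SE) did not pass the test (adjusted p = 0.134; range over 8 alternatives, 0.00911 to 0.182), although against the remote zone it did (1.74-fold, adjusted p = 0.0242).

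The sestrins moved in opposite directions with TMM scaling. Both products bind the GATOR2 complex and hold back mTORC1 when leucine is low. *Sesn1* (chromosome 10, 41809935 to 41908424) had 203.4, 75.2, 134.9, and 137.9 CPM in the WT LV, infarct, border, and remote libraries, and 124.8, 107.5, 152.6, and 154.5 CPM in TKO. It fell to 0.553-fold in the infarct zone (log2 -0.85 ± 0.28 SE, adjusted p = 0.0373). The WT ratio was 0.370 (0.354 to 0.386) and the TKO ratio 0.862 (0.822 to 0.903), the latter turning to 1.25 with total counts alone, and the test of a genotype difference particular to the infarct zone did not pass for *Sesn1* (log2 0.63 ± 0.39 SE, adjusted p = 0.877). The call is lost with total counts alone (log2 -0.17, adjusted p = 0.508) and with only the 4 libraries compared (0.101). The range over 8 alternatives was 0.00453 to 0.508. *Sesn2* (chromosome 4, 132492032 to 132510501) had 4.93, 8.63, 4.22, and 4.995 CPM in WT and 3.36, 5.93, 4.25, and 4.25 CPM in TKO. It rose 1.76-fold (log2 0.81 ± 0.21 SE, adjusted p = 0.0177), by nearly the same ratio in WT, 1.75 (1.43 to 2.15), and in TKO, 1.77 (1.37 to 2.29).

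*Ccng1* (chromosome 11, 40748552 to 40755311) had 706.8, 248.3, 728.6, and 782.9 CPM in the WT LV, infarct, border, and remote libraries and 793.0, 423.3, 856.4, and 837.7 CPM in TKO. The 2 infarct libraries lay far under the other 6, and *Ccng1* fell to 0.438-fold (log2 -1.19 ± 0.21 SE, adjusted p = 0.00374). Its promoter window, shown above, carries an element as close to the consensus as that of *Cdkn1a*. *Zmat3* (chromosome 3, 32334792 to 32366014), which encodes an RNA-binding zinc finger protein, went the other way. Its levels were 6.09, 14.7, 7.82, and 7.56 CPM in WT and 6.95, 11.1, 6.47, and 7.64 CPM in TKO. It rose 1.96-fold (log2 0.97 ± 0.18 SE, adjusted p = 0.0048), the largest rise among the members.

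*Sco2* (chromosome 15, 89371637 to 89373846) encodes a copper chaperone needed to assemble cytochrome c oxidase. It had 8.69, 2.01, 4.45, and 4.14 CPM in the WT LV, infarct, border, and remote libraries and 8.46, 4.59, 7.52, and 4.95 CPM in TKO. It fell to 0.359-fold in the infarct zone (log2 -1.48 ± 0.31 SE, adjusted p = 0.00787), the largest fall among the members. Against the remote zone the value was 0.675-fold and did not pass (adjusted p = 0.114; range over 8 alternatives, 1.33e-04 to 0.114), since the remote libraries were themselves low. The counts of *Sco2*, 85 to 238 per library, are uncertain: 68.3% of its exon bases are shared with *Tymp* on the same strand and 66.2% with *Ncaph2* on the opposite strand, and the counting could split reads between them. *Tymp* had 54 to 99 counts and *Ncaph2* 1967 to 2255 counts per library.

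**Figure D2:**
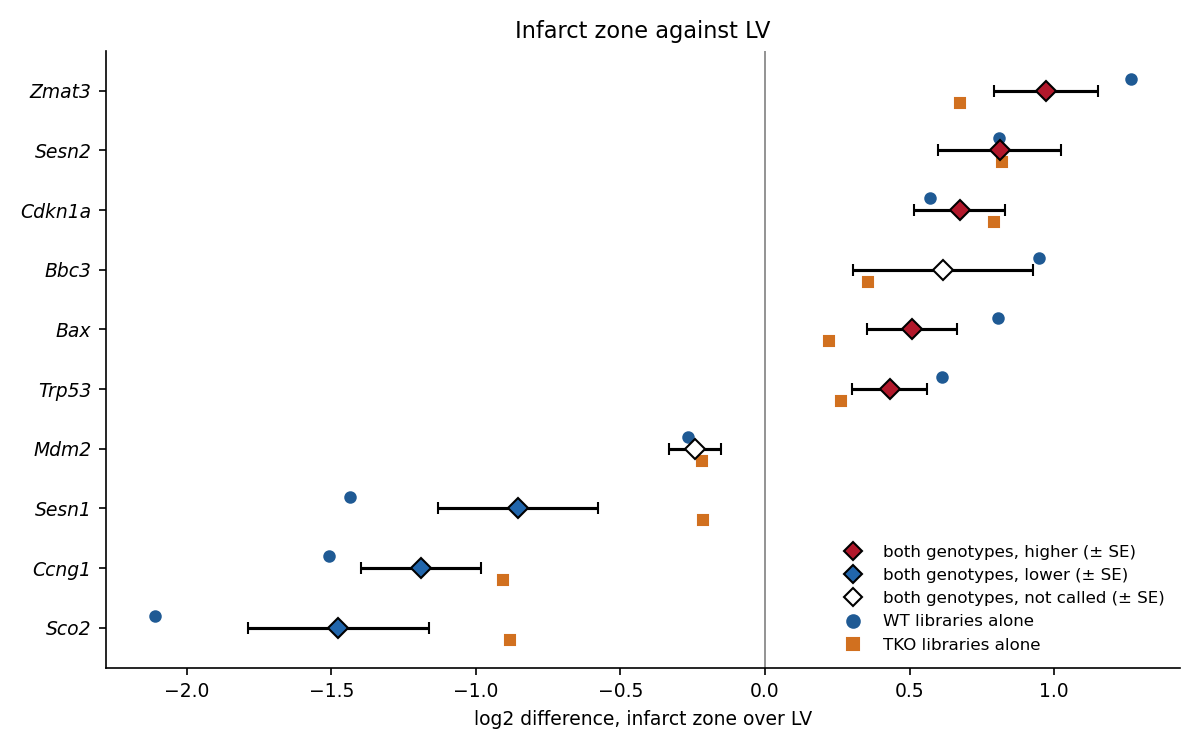
Log2 difference between the infarct zone and the LV (x axis) for each member (y axis, sorted), with diamonds for the fit over both genotypes, bars for its SE, and small circles and squares for the WT and TKO libraries alone. Filled diamonds mark the 5 members that rose and the 3 that fell. The WT point lies farther from 0 than the TKO point for all members except *Cdkn1a* and *Sesn2*. All genes tilted the same way: in WT 28.5% were at least 1.5-fold higher and 25.8% lower. In TKO these shares were 26.2% and 20.2%. No member passed the edgeR test of a genotype difference particular to the infarct zone.

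The members' levels moved with the cell type markers, and the part of tissue composition in these differences was not tested. Against the summed cardiomyocyte markers over the 8 libraries, on the log2 scale, the Pearson correlation was 0.971 for *Ccng1*, 0.897 for *Sesn1*, 0.865 for *Sco2*, and 0.841 for *Mdm2*. It was negative for the other 6, from -0.76 for *Bbc3* to -0.97 for *Zmat3*. *Cdkn1a* and *Sesn2* also followed the summed level of 7 T and B lymphocyte markers, with correlations of 0.95 and 0.953. That sum was 23.9 CPM in the WT and 12.5 CPM in the TKO infarct zone, 9.52 CPM in the WT LV, and 2.78 to 5.97 CPM in the other 5 libraries. The lymphocyte sum was not particular to *Cdkn1a* and *Sesn2*, since *Ccng1* had a correlation of -0.906 with it. Other marker lists gave values close to these in size. *Zmat3* had 0.94 with macrophage, *Sesn2* -0.931 with endothelial, and *Sco2* -0.935 with smooth muscle and pericyte markers. The 8 points share their libraries, and the infarct zone sets them apart.

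**Figure D3:**
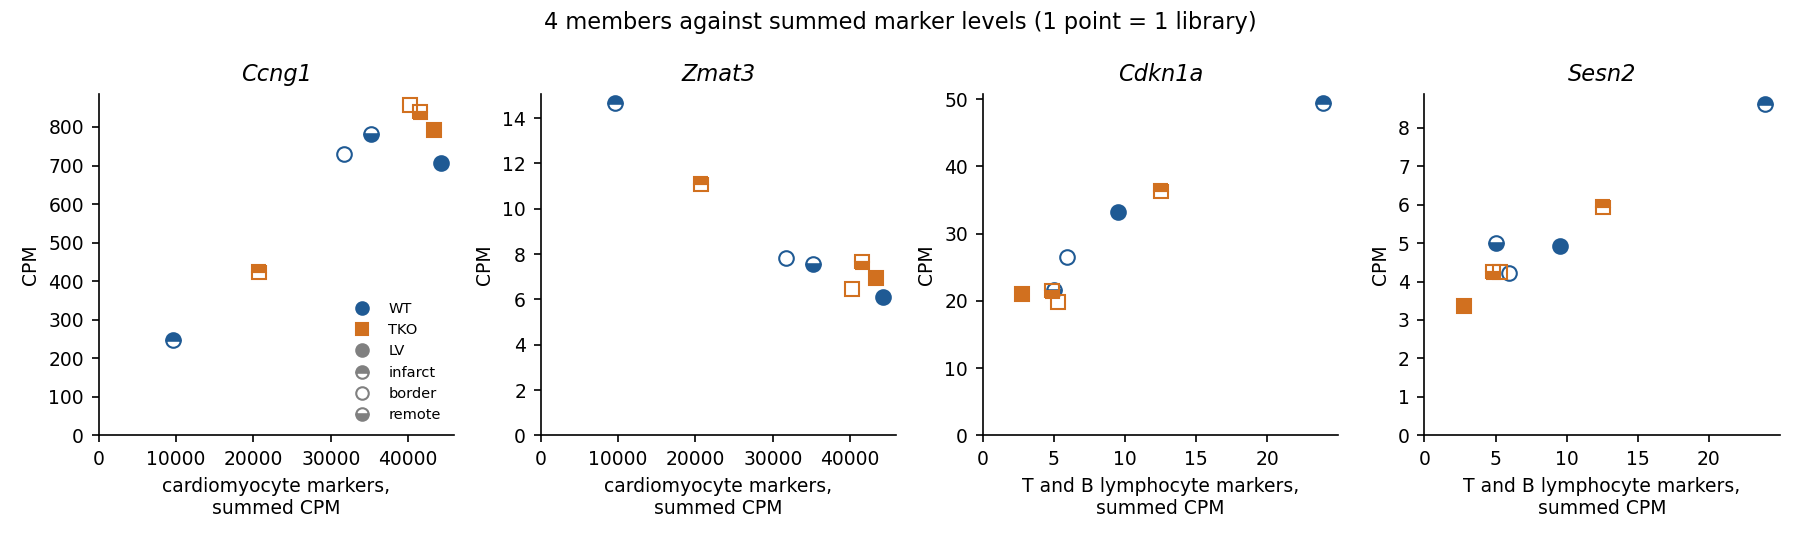
Level of 4 members (y axis, TMM-scaled CPM) against the summed level of cardiomyocyte or T and B lymphocyte markers (x axis, summed CPM); each point is 1 library, with color and shape for genotype and fill for region. *Ccng1* is highest where cardiomyocyte markers are high and *Zmat3* where they are low, and *Cdkn1a* and *Sesn2* have their highest points at the highest lymphocyte marker sum.

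Beyond these 10 genes, a list of 35 other p53 targets was examined, of which 34 were tested. Like the members, it was chosen with earlier results of these data known, so it is a description and not independent support. In the infarct zone 15 rose and 5 fell, where 28.2% of all genes rose and 28.6% fell. Their median log2 difference was 0.57, against 0.02 for all genes. Among those that rose were *Dram1*, a lysosomal regulator of autophagy (4.002-fold, log2 2.001 ± 0.153 SE, adjusted p = 4.00e-04), and *Phlda3*, an inhibitor of AKT (3.34-fold, adjusted p = 7.27e-04). *Phlda3* had 58.4 and 40.3 CPM in the WT and TKO infarct zone and 13.9 to 22.5 CPM in the other 6 libraries. *Gadd45a*, a growth arrest gene, was among those that fell, to 0.388-fold (adjusted p = 4.35e-04).

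**Figure D4:**
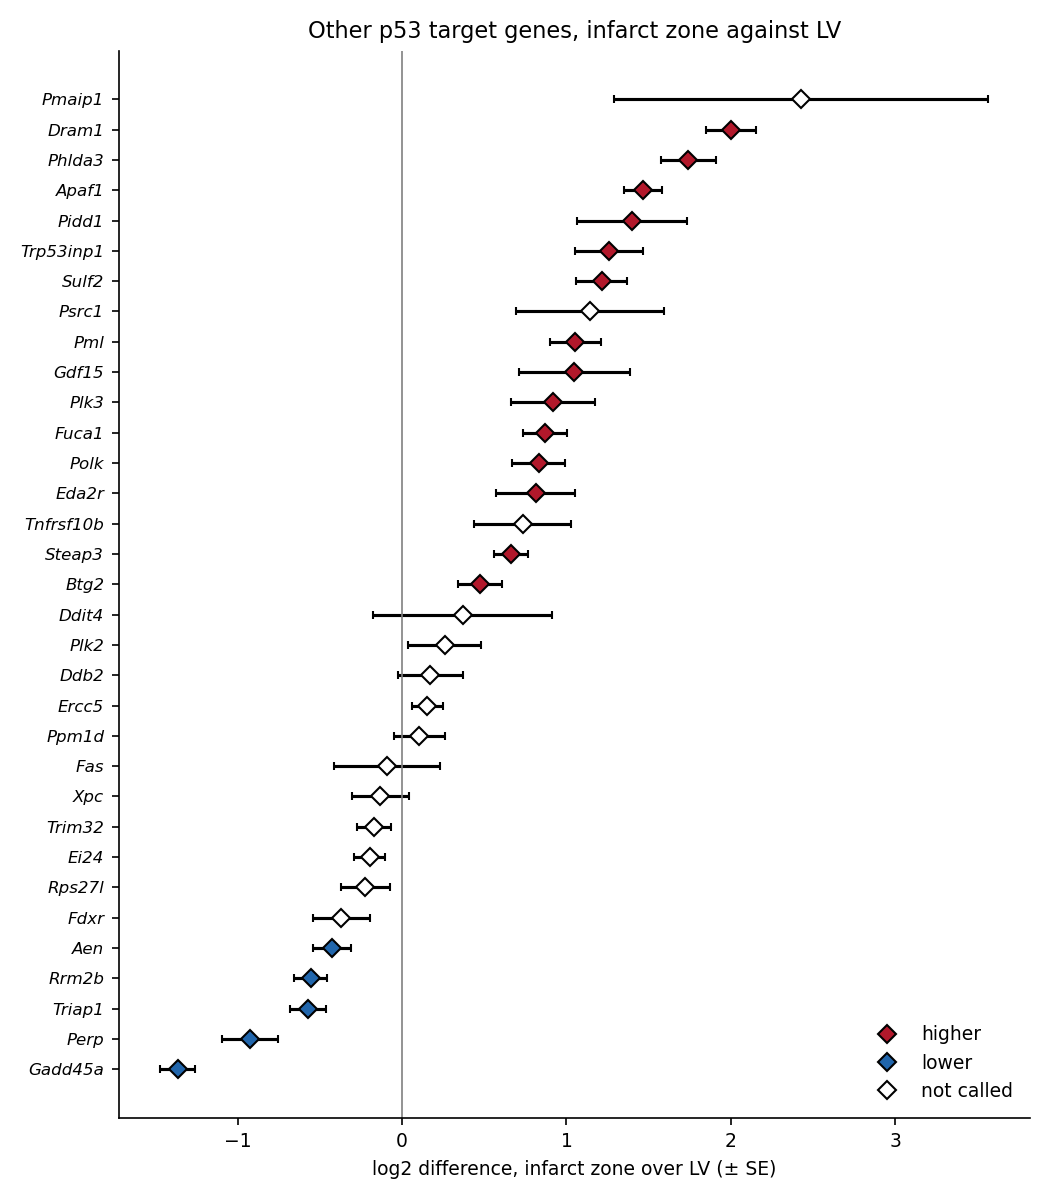
Log2 difference between the infarct zone and the LV (x axis, bars for SE) for 33 of the 34 tested genes of a wider p53 target list (y axis, sorted), the other being left out of the text and the plot; filled diamonds mark genes called higher or lower. Of the genes drawn, 14 were called higher, *Dram1* and *Phlda3* among them, and 5 lower, led by *Gadd45a*; *Pmaip1* has the highest estimate, with a wide error, and was not called.

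Partners of the members gave mixed counts, to be read against the 28.2% of all genes that rose and the 28.6% that fell in this comparison. Among 16 tested regulators of p53, 3 rose and 4 fell; *Kat5*, an acetyltransferase of p53, fell to 0.346-fold (adjusted p = 0.00326), *Ppp1r13l*, which encodes the p53 inhibitor iASPP, fell to 0.435-fold (adjusted p = 0.001), and *Chek1*, a checkpoint kinase, rose 1.95-fold (adjusted p = 0.0449). Among 15 BCL2 family members and caspase partners, 3 rose and 3 fell, the largest changes being *Bid* (2.89-fold, adjusted p = 0.00631), *Cycs*, cytochrome c (0.372-fold, adjusted p = 0.00219), and *Bok* (2.38-fold, adjusted p = 0.0102). Of 13 relatives of the sestrins and of cyclin-kinase inhibitors, 3 rose and none fell, among them *Cdkn2b*, which encodes the inhibitor p15 (3.10-fold, adjusted p = 0.00976). The 8 genes that deliver copper or heme to cytochrome c oxidase all fell together with *Sco2*, from *Cox10* at 0.379-fold (adjusted p = 9.11e-04) and *Cox17* at 0.423-fold (adjusted p = 0.00165); their median log2 difference was -0.84. Of 11 GATOR and mTORC1 genes that act with the sestrins, 1 rose (*Castor1*, 1.82-fold, adjusted p = 0.047) and 5 fell, *Nprl2* most (0.501-fold, adjusted p = 0.0109).

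In the border and remote zones no member passed the test against the LV. In the border zone, where edgeR called 0.669% of all genes higher and 0.0462% lower, 0 of 10 members had an unadjusted p under 0.05, and DESeq2 called 0. In the remote zone, where edgeR called 0% of genes in either direction, 1 member had an unadjusted p under 0.05 and DESeq2 called 0. That member was *Sco2*, at 0.521-fold of the LV (log2 -0.94 ± 0.31 SE, adjusted p = 0.388), lower in both genotypes, with ratios of 0.477 (0.381 to 0.594) in WT and 0.585 (0.472 to 0.724) in TKO.

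The next question was whether loss of TIGAR altered the p53 set. With the 4 regions as blocks, 0 of 10 members passed the test between TKO and WT, where edgeR called 0.0769% of all genes higher and 0.0615% lower in TKO. An unadjusted p under 0.05 was reached by 2 members, *Cdkn1a* and *Sco2*, and DESeq2 called 0. *Cdkn1a* was 0.766-fold in TKO (log2 -0.38 ± 0.11 SE, adjusted p = 0.221 in edgeR). The LV ratio of TKO over WT was 0.631 (0.567 to 0.703), the infarct ratio 0.735 (0.686 to 0.788), and the border ratio 0.746 (0.670 to 0.830), whereas in the remote zone it was 0.998 (0.894 to 1.115). *Sco2* was 1.44-fold in TKO (log2 0.53 ± 0.22 SE, adjusted p = 0.307), and *Mdm2* 1.02-fold (adjusted p = 0.852). *Trp53* stood at 0.897-fold (adjusted p = 0.421), with a ratio of 1.10 (0.968 to 1.25) in the LV and 0.866 (0.790 to 0.949), 0.818 (0.715 to 0.934), and 0.832 (0.730 to 0.948) in the infarct, border, and remote zones. Cardiomyocyte markers summed higher in TKO than in WT in all 3 zones and fibroblast and macrophage markers lower. The part of these shifts was not tested.

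The ratio of 2 libraries has no replicate check, and its interval covers counting error only. At a fold of 1.5 in either direction, 6 of 40 TKO over WT ratios were past the limit. In the LV, where 14.4% of all genes were past it, these were *Cdkn1a* and *Sesn1*, the latter at 0.613 (0.587 to 0.641). In the infarct zone (16.3% of all genes) they were *Ccng1* at 1.71 (1.66 to 1.75) and *Sco2* at 2.28 (1.75 to 3.003). In the border zone (11.9%) they were *Sco2* at 1.69 (1.36 to 2.11) and *Bbc3* at 0.583 (0.428 to 0.789), and in the remote zone (9.45%) there were none. With TMM, *Mdm2* held a ratio of 1 within its interval in every region, from 0.989 (0.918 to 1.06) in the LV to 1.05 (0.983 to 1.124) in the remote zone, but with total counts alone its infarct ratio turned from 1.02 to 0.835 (0.781 to 0.893). With total counts alone, 9 ratios were past the limit. That scaling also moved the median ratio of all genes in the infarct zone to 0.82, from 1 with TMM. The share of all genes past the limit with it is not given. In the infarct zone *Cdkn1a* (0.5997), *Bax* (0.624), *Sesn2* (0.561), and *Zmat3* (0.618) passed the limit, and *Ccng1* (1.39) no longer did. These values, and the 0.835 of *Mdm2*, are to be read against that shift of all genes.

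**Figure D5:**
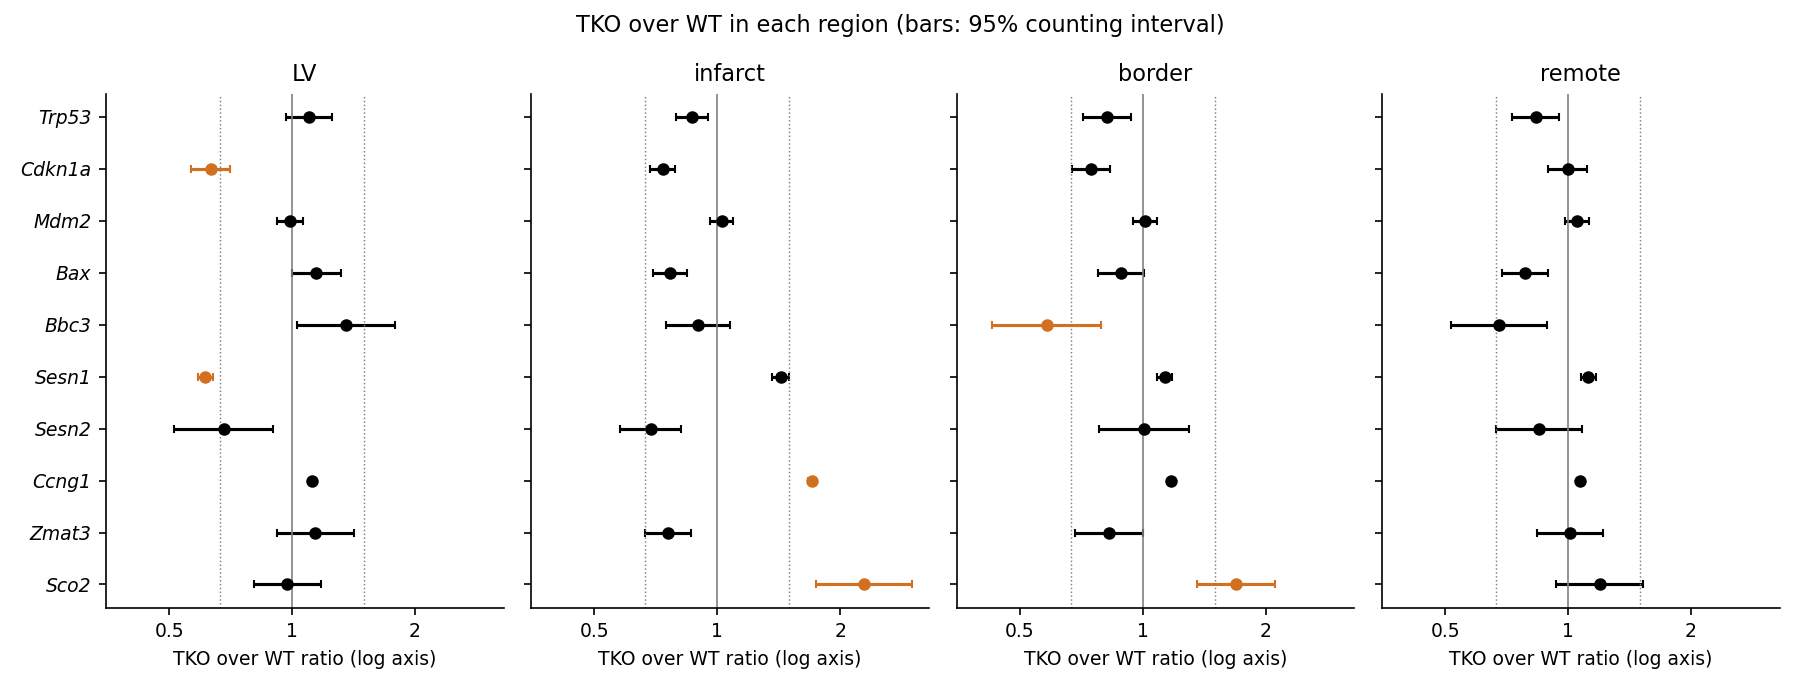
TKO over WT ratio (x axis, log scale) of each member (y axis) in the 4 regions; points are ratios of 1 library to another, bars are exact 95% intervals from counting error, dotted lines stand at 1.5-fold in either direction, and colored points lie past them. With the TMM scaling drawn, the interval of *Mdm2* holds 1 in all 4 panels. With total counts alone its infarct ratio is 0.835, where the median of all genes is 0.82. *Sesn1* lies under 1 in the LV and above 1 in the 3 zones, and *Sco2* and *Ccng1* are highest in the infarct zone.

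Whether 1 region departed from the others in its genotype difference was tested with an added term. In the infarct zone 0 of 10 members departed (edgeR called 0.00769% of all genes; 1 member had an unadjusted p under 0.05). That member was *Ccng1*, whose TKO over WT difference was larger there than elsewhere by 0.60 ± 0.15 SE on the log2 scale (adjusted p = 0.411 in edgeR and 0.0183 in DESeq2, which gave no adjusted p for 8 of the 10 members here, range over 6 alternatives, 0.0183 to 0.594). In the LV, the region labelled with no infarct-related zone, 0 of 10 members departed (0.646% of all genes); 4 had an unadjusted p under 0.05 and DESeq2 called 1. *Sesn1* was lower in the TKO than in the WT LV but higher in the TKO zones than in the WT zones, a departure of -0.99 ± 0.21 SE (adjusted p = 0.117 in edgeR, 0.0124 in DESeq2, and 0.0475 with total counts alone, range over 6 alternatives, 0.0124 to 0.149). *Bax* (0.50 ± 0.15 SE, adjusted p = 0.209), *Bbc3* (0.92 ± 0.36 SE, adjusted p = 0.294), and *Trp53* (0.39 ± 0.13 SE, adjusted p = 0.242) had values of the opposite sign, none of which passed.

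Among the other p53 targets, 2 of 34 did depart in the LV, against 0.646% of all genes. The same share is to be set beside the BCL2 family count below. *Ddit4* encodes REDD1, which, like the sestrins, restrains mTORC1. It had 102.9 CPM in the WT and 30.3 CPM in the TKO LV, while in the zones TKO was higher, with ratios of 1.31 to 1.38 (departure of -2.19 ± 0.14 SE, adjusted p = 0.0157). *Fas*, the death receptor, had 23.9 and 10.3 CPM in the WT and TKO LV and ratios of 0.990 to 1.08 in the zones (departure of -1.28 ± 0.15 SE, adjusted p = 0.0455). Of the BCL2 family list 1 of 15 departed: *Bcl2l1*, which encodes the antiapoptotic BCL-xL, had a ratio of 0.427 in the LV and 1.11 to 1.44 in the zones (departure of -1.61 ± 0.19 SE, adjusted p = 0.0455). *Cdkn1a* and *Sesn2* were also lower in the TKO LV, at ratios of 0.631 and 0.682 (0.515 to 0.899), but neither departed from the zones (adjusted p of 0.434 and 0.709). The lymphocyte marker sum was 9.52 CPM in the WT and 2.78 CPM in the TKO LV, and its part in these differences was not tested. Each departure rests on 1 TKO and 1 WT library of the LV. The gene lists were chosen with earlier results of these data known, and no alternatives are given here for *Ddit4*, *Fas*, and *Bcl2l1*.

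Among 12999 genes, those most like *Trp53* by the Pearson correlation of log2 levels over the 8 libraries were *Ap5z1* (0.987), *Champ1* (0.983), and *Ctu1* (0.979). *Cdkn1a* was most like *Zfp282* (0.988), *Grina* (0.988), and *Slc7a8* (0.984). Among the members, *Trp53* was closest to *Bbc3* (0.959) and *Bax* (0.907). These values describe 8 points that share their libraries and are given with no test.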

How the data were processed

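Bulk RNA-seq of mouse hearts gave 8 libraries, grouped by the labels into WT and TKO and 4 regions. The authors trimmed reads with Trim Galore 0.6.5, quantified transcripts with Kallisto 0.46 against the mm10 transcriptome, and used tximport to sum transcripts per gene. The submitters' notes also name edgeR 3.34.1. The deposited values are estimated counts per gene, whole numbers with no normalization, and no column was left unused. The members and gene lists were chosen with earlier results of these data known.

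Genes whose mean CPM reached 1 were fitted with edgeR 4.0.16 (R 4.3.3), TMM factors, and the quasi-likelihood test, with region and genotype as terms and Benjamini-Hochberg adjustment over 12999 genes. An added TKO term for the infarct zone or the LV tested departures. The tests treat regions or genotypes as repeats, since no group has a second library; whether samples share hearts is not given in the sources used here, so p-values measure only the spread between these libraries. Ratios of 2 libraries carry exact (Clopper-Pearson) 95% intervals, and calls of at least 1.5-fold used a prior count of 2. Since no molecular identifiers were counted, reads are not independent, and intervals cover counting error only. All counts of the members lie above a floor of 3.

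Named genes were all members, *Tigar*, of each pathway list up to 3 genes with the largest differences among those called, and the 3 genes most correlated with *Trp53* and *Cdkn1a* (log2 of CPM plus 0.5). A few genes within this rule were left out of the text. Positions come from the GENCODE annotation of GRCm38. The limit of 3 mismatches in the promoter search was chosen after a search with 2 had been seen. The fits were tested on simulated data in which each gene had the spread typical of its level. Apart from a small set of changed genes, levels were equal in all libraries. The infarct libraries here differ in most genes, so the recovered shares may not hold for these data. There edgeR recovered 61.6% of 1.5-fold and 92.7% of 2-fold genotype differences. For a zone against the LV it recovered 13% to 19.4% and 61.9% to 73%. For departures of the infarct zone it recovered 1.02% and 9.09%, and for those of the LV 0% and 13.4%. In that setting most departures of these sizes were missed. Alternatives were DESeq2 1.42.0, other scalings and low-count filters, and subsets of the libraries, and Python 3.11.15 with pandas, numpy, and matplotlib made tables and figures.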

Additional observations from a re-analysis of the deposited data

How the results depend on the processing

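With 1 library per group, the fits have 3 residual degrees of freedom (2 for departures), so a p that missed the threshold does not show equal levels. Of 450 member comparisons and alternatives, 424 kept direction and side of the threshold, 11 changed direction, 7 were no longer called, and 8 were newly called. The cause was not tested. The 424 include 8 departures of the infarct zone for which DESeq2 gave no adjusted p, taken as not called. With total counts alone, direction changed for *Mdm2* (infarct against LV 0.44; genotype -0.0758; departure of the infarct zone -0.25, of the LV 0.0757; infarct over LV ratio 1.48 in WT and 1.25 in TKO; TKO over WT ratio 0.835 in the infarct and 0.947 in the border zone), *Sesn1* (genotype -0.0629; TKO infarct over LV ratio 1.25), *Bax* (border against LV 0.0776), and *Bbc3* (departure of the infarct zone -0.11). *Bax* in the border zone was 0.0172 with only the 4 libraries compared. The genotype difference of *Sesn1* was 0.0407, and leaving out 1 region gave -0.13 (without the infarct libraries) to 0.29 (without the LV), with -0.01 without the border libraries and -0.0318 with no replicate block. None of these genotype values passed the test. With only the 4 libraries compared, 5 members were called in the infarct zone against 8. DESeq2 called 1 member as departing in the infarct zone, where it gave an adjusted p for 2 of 10, and 1 in the LV, and total counts alone called 1 in the LV.

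Counts over all genes moved more. For genotype, 18 genes were called by edgeR, 342 by DESeq2, 56 with total counts alone, and 8 with no replicate block; leaving out 1 region gave 3 (without the remote zone) to 80 (without the LV). For the border zone the counts were 93 in edgeR, 576 in DESeq2, 200 with total counts alone, and 0 with only the 4 libraries. For the remote zone they were 0, 162, and 18, with 3 under either filter on low counts and 6 with only the 4 libraries. Departures of the infarct zone were 1 in edgeR, 288 in DESeq2, and 0 with at least 10 counts in every library; departures of the LV were 84, 280, 275 with total counts alone, and 140 with at least 10 counts. The labels give no replicate numbers, so TKO and WT libraries were paired by region alone, which is the block of the genotype test.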
